A study of Brassica napus with 12 samples.

Results

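PAL1 (LOC106388514) and CCR1 (LOC106367237) are 2 of the 998 genes listed in the FPKM files of rapeseed (Brassica napus) flowers, and they were taken by their identifiers as the entry gene of the phenylpropanoid pathway and the first gene of its lignin branch. Both genes are listed for all 12 libraries, PAL1 at 0 FPKM in 3 of them (the G59 control group below). The libraries were made from flowers of the high-phenolic genotype G67 under drought, G67 under control, the low-phenolic genotype G59 under drought and G59 under control, with 3 libraries in each of the 4 groups. Drought was imposed from flowering with 20% PEG6000, a polymer that binds water, at 10% relative soil water, and control plants received sterile water at 30%. Each phenolic class is represented by 1 genotype, and the plants grew in pots in a greenhouse. FPKM is a fragment count divided by transcript length and by the mapped fragments of the library, so that different genes can be compared within a library.

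Phenylalanine ammonia-lyase (PAL) removes ammonia from phenylalanine to give cinnamic acid, the precursor of phenolic acids, flavonoids and lignin. Cinnamate 4-hydroxylase (C4H) then adds a hydroxyl group to give coumaric acid. From the CoA esters that follow, chalcone synthase and chalcone isomerase (CHI) lead to the flavonoids, while cinnamoyl-CoA reductase (CCR) makes the aldehydes from which the lignin monomers are formed. Ferulate 5-hydroxylase (F5H) directs that branch towards the syringyl type of lignin and, in Brassicaceae, towards sinapate esters.

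The annotation of the listed genes sets a limit on what can be compared. Of the 998 identifiers, 877 matched a RefSeq gene table (assembly Da-Ae), which is not the assembly used for mapping, and 9 of those carry a gene name. LOC106388514 is named PAL1-2 there. The table names 4 PAL genes, of which PAL1-1 (LOC106391500), PAL2-1 (LOC106371449) and PAL2-2 (LOC106382579) are not among the listed genes, and it names 2 CCR2 genes, which are not listed either. Rapeseed is an allotetraploid in which such copies can share reads, and how reads of near-identical copies were assigned is not given in the sources used here. The levels of PAL1 and CCR1 are therefore uncertain to that extent. None of the 15 names fixed as tissue markers matched a listed gene, so the labelled tissue could not be checked. In bulk flower RNA, fewer cells of a type and less RNA per cell cannot be told apart.

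The listed genes are part of each library and the files hold no read counts, so the depth is unknown. The listed FPKM summed to 39158 to 43412 in the G67 drought libraries and 45469 to 51160 in the G67 control libraries, against 3439 to 5267 in the G59 drought libraries and 883 to 1059 in the G59 control libraries. Across the listed genes, the group means of G67 and G59 had a rank correlation of 0.009 under drought and -0.028 under control, whereas that of drought and control was 0.80 within G67 and 0.186 within G59. Whether 1 row stands for 1 gene throughout is in doubt from these values, and each comparison of genotypes, and of drought with control in G59, presupposes it. The listed genes are also not a random sample. Outside the 6 flavonoid candidates of the study, no listed gene in G67 had a drought mean between 0.964 and 1.68 times its control mean. PAL1 and CCR1 are among these candidates, which the study chose with the help of these libraries, so their direction is not independent evidence.

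In G67, PAL1 had 47.3, 94.7 and 68.9 FPKM in replicates 1, 2 and 3 of the drought libraries, against 11.1, 74.9 and 14.5 FPKM in replicates 1, 2 and 3 of the control libraries. Replicate 2 of the control lay within the range of the drought libraries and the other 2 control libraries lay far below it, so that the groups overlapped. The means were 70.3 ± 23.7 FPKM under drought and 33.5 ± 35.9 FPKM under control (SD, n = 3 each). On the scale of log2(FPKM + 1), PAL1 rose by 1.50 (standard error, SE, 0.54, adjusted p = 0.0223 in limma) and was a DEG (adjusted p of at most 0.05 and absolute log2 fold change of at least 1). Of all listed genes, 44% were DEGs in this comparison and 29.5% were higher under drought, so the call by itself does not set PAL1 apart. The SE of 0.54 was pooled over all 4 groups. Fitted on the G67 libraries only, PAL1 had an SE of 0.67 (adjusted p = 0.0664 in limma) and was not a DEG. The exact two-sided permutation test gave p = 0.3, where 3 libraries against 3 cannot go below 0.1.

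In the fit of all groups, the call of PAL1 in G67 was lost when any 1 of 4 libraries was left out. Without replicate 2 of the control, the log2 fold change was 2.32 and the ratio of the means 5.49, against 2.10 with all libraries. Without replicate 1 of the control it was 0.999 (adjusted p = 0.107 in limma), and PAL1 was not a DEG. It was not one either without replicate 3 of the control (1.18, adjusted p = 0.0885 in limma), or without replicate 2 or 3 under drought (1.26 and 1.49, adjusted p = 0.0805 and 0.0528 in limma). Within pairs of the same replicate number, PAL1 was 4.25, 1.26 and 4.75 times as high under drought as under control in replicates 1, 2 and 3. PAL1 was thus higher under drought in 3 of 3 such pairs, by little in replicate 2. Whether the replicate numbers pair the libraries is not settled. Control replicate 2 (74.9 FPKM) exceeded drought replicates 1 and 3 (47.3 and 68.9 FPKM), so the count for PAL1 depends on this pairing.

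CCR1 had 56.2, 58.97 and 69.4 FPKM in replicates 1, 2 and 3 of the G67 drought libraries, against 24.9, 31.0 and 35.6 FPKM in those of the G67 control. Every drought library lay above every control library, and the order of the replicates was the same in both groups. The means were 61.5 ± 6.95 FPKM under drought and 30.5 ± 5.36 FPKM under control (SD, n = 3 each), a ratio of 2.02, and the same-numbered pairs had ratios of 2.26, 1.90 and 1.95. The log2 fold change was 0.997 (SE 0.22, adjusted p = 0.0017 in limma). It passed the threshold on p and missed that on the fold by less than its standard error, and CCR1 is therefore no DEG here. Of the listed genes, 83.8% had an adjusted p of at most 0.05 here, 41.3% with higher values under drought, and in 91.3% the groups did not overlap. The exact permutation test gave p = 0.1, the smallest possible.

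**Figure D1:**
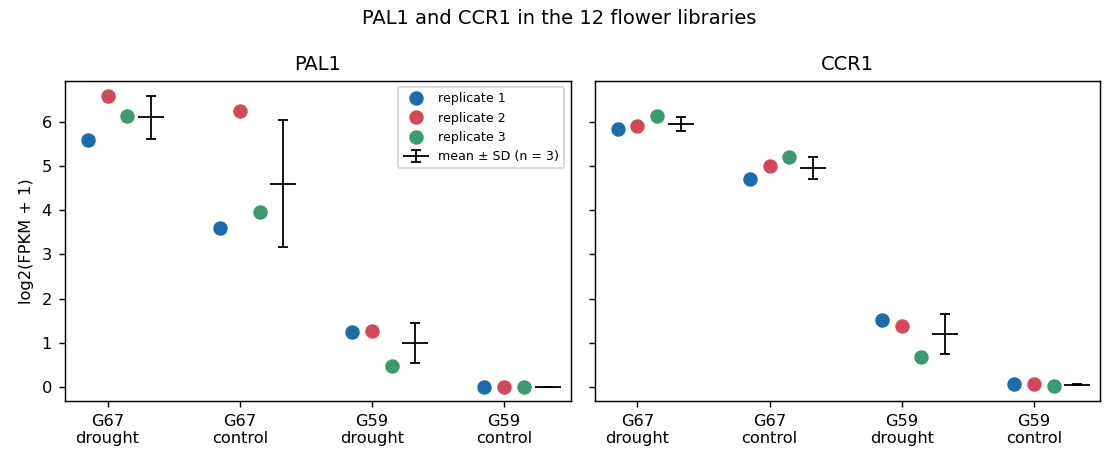
Level of PAL1 (left) and CCR1 (right) as log2(FPKM + 1) in each of the 12 libraries, by group. Points are libraries coloured by replicate number, and the black bars are the mean ± SD of 3 libraries. In G67, PAL1 of control replicate 2 (74.9 FPKM) sits among the drought libraries (47.3 to 94.7 FPKM), while the groups of CCR1 are separate (56.2 to 69.4 FPKM under drought, 24.9 to 35.6 FPKM under control). All G59 libraries lie below all G67 libraries in both panels.

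The ratios of means in G67 were 2.10 for PAL1 and 2.02 for CCR1, while the ratios of medians were 4.75 for PAL1 and 1.90 for CCR1, and the spreads differed. The coefficient of variation of PAL1 was 33.8% in the drought libraries and 107% in the control libraries, while that of CCR1 was 11.3% under drought and 17.6% under control. On the log2 scale, the SD of PAL1 in the G67 control was 1.44, and 5 of the other listed genes (0.501%) had a larger one. The SD of CCR1 in that group was 0.25, with 31.3% of the listed genes above it and a median of 0.18 over all listed genes. In the G67 drought libraries the SDs were 0.49 for PAL1 and 0.16 for CCR1, exceeded by 17.3% and 74.1% of the listed genes. The spread of PAL1 thus came mainly from 1 library. PAL1 in control replicate 2 was 5.85 times the mean of the other 2 control libraries, and on the log2 scale 2 listed genes had a larger gap of that library to the other 2. CCR1 in the same library was 1.02 times the mean of the other 2, with 404 genes at a larger gap. Under drought, replicate 2 was again the highest library for PAL1, at 1.63 times the mean of the other 2, and 37 listed genes had a larger gap.

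Among listed genes with a ratio of drought to control above 1 in G67, both members were below the median by their ratios of means. PAL1 was exceeded by 326 of the 407 such genes and CCR1 by 347 of them, and the median ratio of the 407 genes was 2.91. A further 22 listed genes had a control mean of 0 in G67, so they have no ratio and are not counted in these places. Outside the 6 candidates no listed gene had a ratio between 0.964 and 1.68, so these places hold only within the list. For PAL1 this place turned with control replicate 2, without which its ratio was 5.49, and its ratio of medians was 4.75. By log2 fold change of FPKM + 1, which weighs libraries equally on the log scale, 132 listed genes were above PAL1 and 303 were above CCR1.

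The place of each gene within its own library does not depend on how the libraries were scaled. Ranked by FPKM from 1 for the highest of the 998 listed genes, PAL1 stood at 181, 92 and 129 in replicates 1, 2 and 3 of the G67 drought libraries, against 475, 128 and 408 in those of the G67 control. CCR1 stood at 161, 155 and 127 under drought, against 310, 244.5 and 217 under control. PAL1 stood near the middle of the list in 2 control libraries and near the top in all drought libraries, whereas CCR1 was well above the middle throughout. The mean rank of PAL1 was 134 under drought and 337 under control (exact permutation test, two-sided, p = 0.3, 3 libraries against 3), and that of CCR1 was 147.7 under drought and 257.2 under control (exact permutation test, p = 0.1, the smallest possible).

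In G59, both genes stood in the lower part of the list. PAL1 ranked 622.5, 614.5 and 767 in replicates 1, 2 and 3 of the drought libraries, and in the control libraries it was listed at 0 together with every other gene at 0, which gives tied ranks of 860, 857 and 868. CCR1 ranked 543, 584 and 690 under drought, against 713, 706 and 730.5 under control. The groups of drought and control did not overlap for either gene (exact permutation test, p = 0.1 each, the smallest possible). In G59 this was so for the FPKM of 98% of the listed genes.

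**Figure D2:**
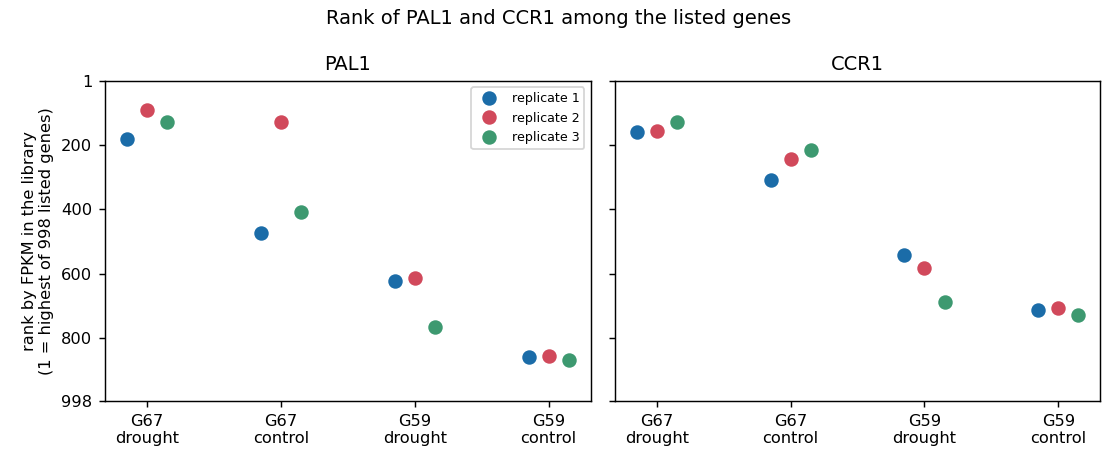
Rank of PAL1 (left) and CCR1 (right) by FPKM among the 998 listed genes of each library, with 1 (the highest gene) at the top of the axis. Points are libraries coloured by replicate number. PAL1 ranks 92 to 181 under drought and 128 to 475 under control in G67, and 614.5 to 767 under drought and 857 to 868 under control in G59, where the control ranks are ties at 0 FPKM.

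Compared library by library within G67, CCR1 had the higher FPKM in 4 of the 6 libraries and PAL1 in 2, which were replicate 2 of the G67 drought and replicate 2 of the G67 control libraries. The ratio of PAL1 to CCR1 was 0.842, 1.61 and 0.994 in replicates 1, 2 and 3 of the G67 drought libraries, against 0.446, 2.42 and 0.408 in those of the G67 control. PAL1 was the higher of the genes in replicate 2 of both groups, and the ratios of the other 2 libraries lay closer to 1 under drought than under control. In log2((PAL1 + 1)/(CCR1 + 1)), the means were 0.14 ± 0.48 under drought and -0.36 ± 1.40 under control (SD, n = 3 each). The difference of 0.50 was smaller than the spread of the control libraries (exact permutation test, two-sided, p = 0.6). Leaving out control replicate 2 gave 1.31, and leaving out control replicate 3 gave 0.06. A difference between the drought responses of the 2 genes in G67 was therefore not shown, and the spread of PAL1 leaves room for one in either direction.

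In G59, the ratio of PAL1 to CCR1 was 0.731, 0.882 and 0.65 in the drought libraries, with CCR1 higher in all 3. Under control PAL1 was listed at 0 and CCR1 at 0.04, 0.04 and 0.02 FPKM, so that a ratio has no meaning there. The log2 ratio with 1 added was -0.20 ± 0.08 under drought and -0.05 ± 0.02 under control (SD, n = 3 each; exact permutation test, p = 0.1). Its direction depended on the number added, since the difference was -0.15 with 1 FPKM added, 0.04 with 0.1 and 1.66 with 0.01. Between G67 and G59, the log2 ratio with 1 added differed by 0.01 (exact permutation test stratified by treatment, 400 arrangements, p = 0.98). With 0.01 FPKM added, that difference was 1.12 (exact permutation test, p = 0.01). Neither value decides whether the ratio differs between the genotypes, since the number added largely sets the G59 control values.

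**Figure D3:**
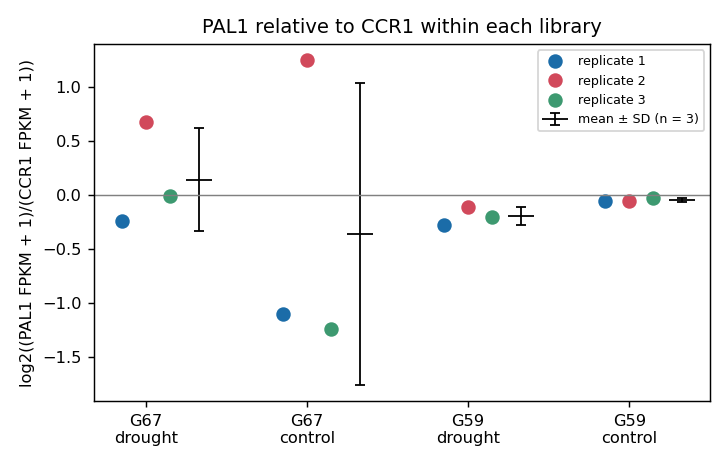
Ratio of PAL1 to CCR1 within each library as log2((PAL1 FPKM + 1)/(CCR1 FPKM + 1)), by group. Points are libraries coloured by replicate number, the black bars are the mean ± SD of 3 libraries, and the grey line at 0 marks equal values. Replicate 2 is the only library above 0 in each G67 group, and the G59 values are drawn towards 0 because both genes are low there.

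In absolute terms both genes were near the bottom of the scale in G59. PAL1 had 1.36, 1.42 and 0.39 FPKM under drought, against 0 in all 3 control libraries. Its log2 fold change of 0.996 (SE 0.54, adjusted p = 0.0956 in limma) passed neither threshold, with the SE pooled over all 4 groups. Fitted on the G59 libraries only, PAL1 had an SE of 0.23 and an adjusted p of 0.00685 in limma. It then passed on p and narrowly missed the fold, and it was no DEG in either fit. In the fit of all groups, 91.6% of the listed genes passed on p alone in G59. CCR1 had 1.86, 1.61 and 0.60 FPKM under drought, against 0.04, 0.04 and 0.02 FPKM under control, and was a DEG at a log2 fold change of 1.15 (SE 0.22, adjusted p = 0.00058 in limma). DEGs made up 54% of the list in this comparison and those higher under drought 47.3%, and the median log2 fold change over all listed genes was 0.98, close to the values of both members with 1 FPKM added. With 0.1 FPKM added the median was 1.90, PAL1 had 3.36 and CCR1 3.32, and with 0.01 FPKM added the median was 2.23, PAL1 had 6.53 and CCR1 4.86. After quantile normalization CCR1 had 0.45 (adjusted p = 0.0642 in limma) and was not a DEG, and without replicate 1 under drought it had 0.98, just under the threshold. With median-ratio scaling PAL1 was a DEG in G59 (1.35, adjusted p = 0.0334 in limma).

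For both genes, the lowest G67 library exceeded the highest G59 library under either treatment (exact permutation test stratified by treatment, p = 0.005, which is the lowest value 400 arrangements can give). The log2 fold change of G67 against G59 under drought was 5.10 for PAL1 (SE 0.54, adjusted p = 1.33e-06 in limma) and 4.77 for CCR1 (SE 0.22, adjusted p = 3.65e-10 in limma). Under control it was 4.60 for PAL1 and 4.92 for CCR1 (adjusted p = 3.01e-06 and 2.03e-10 in limma). Both were DEGs in both comparisons, as were 73.6% of the listed genes under drought (67% higher in G67) and 80.6% under control (77.5% higher in G67). The medians over all listed genes were 2.01 under drought and 2.67 under control, and the groups did not overlap for 82.7% and 91.1% of the listed genes. Both members lay above the middle of the list, with 97 and 129 listed genes above PAL1 and CCR1 under drought and 221 and 187 above them under control. Under drought, the values were 3.24 for PAL1 and 2.86 for CCR1 with median-ratio scaling, and 2.62 and 2.25 after quantile normalization. Under control they were 3.26 and 3.40 with median-ratio scaling, and 2.36 and 2.003 after quantile normalization. With 0.01 FPKM added the control values were 11.2 for PAL1 and 9.48 for CCR1. The comparisons of genotype and of drought share libraries and are not independent of each other. In the order of the group levels, G67 drought, G67 control, G59 drought and G59 control, all neighbours were separate for CCR1, while for PAL1 the first pair overlapped. The first pair was separate for 91.3% of the listed genes and the last for 98%. No such share was computed for the middle pair, and the pairs that include G59 presuppose 1 gene per row.

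The drought response of G67 minus that of G59 was 0.50 for PAL1 (SE 0.77, adjusted p = 0.608 in limma) and -0.15 for CCR1 (SE 0.31, adjusted p = 0.714 in limma), and neither passed, while 62.4% of the listed genes did. Adding 0.01 in place of 1 FPKM turned or widened these values to -4.97 for PAL1 and -3.84 for CCR1 (adjusted p = 0.00088 and 0.000139 in limma), and the G59 control values lie near 0. Without replicate 2 of the G67 control, the difference of PAL1 was 1.33 (adjusted p = 0.0146 in limma).

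Of the other genes of the pathway, 6 were listed, which are C4H (LOC106348398, so named in the RefSeq table, where LOC106446415 is another C4H copy that is not listed), F5H1 (LOC106350027, named BNF5H1) and the 4 flavonoid candidates CHI, CYP75B137, FLS3 and UGT89B1. Like PAL1 and CCR1, these candidates were chosen by the study with the help of these libraries, and their direction is not independent evidence. In G67, 2 of the 6 rose under drought, 1 fell and 3 were not DEGs, where 29.5% of the listed genes rose and 14.5% fell. Their median log2 fold change was 0.78, against -0.38 over all listed genes. In G59, 3 rose, 1 fell and 2 were not DEGs, where 47.3% of the listed genes rose and 6.71% fell, and their median was 1.20, against 0.98 over all listed genes. With 6 genes, the counts of those that rose are near these shares.

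C4H, which acts directly after PAL, moved against PAL1 and CCR1 in G67. It had 85.2, 41.3 and 48.8 FPKM in the drought libraries, against 181, 120 and 145 FPKM under control. The groups did not overlap, as for 91.3% of the listed genes in G67. C4H fell by 1.38 on the log2 scale (SE 0.29, adjusted p = 0.00129 in limma), with ratios of 0.471, 0.345 and 0.336 in same-numbered pairs. Lower DEGs made up 14.5% of the listed genes. With quantiles equalized over the libraries, C4H had -0.83 (adjusted p = 0.074 in limma) and was not a DEG.

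In control libraries of G67, C4H was 16.3, 1.60 and 10.0 times PAL1 in replicates 1, 2 and 3, whereas under drought it was 1.80, 0.436 and 0.708 times PAL1. Relative to CCR1, C4H stood at 1.52, 0.70 and 0.703 under drought, against 7.27, 3.87 and 4.08 under control. PAL1 thus had a higher FPKM than C4H in 2 of the 3 drought libraries and in 0 of the 3 control libraries, for 1 listed copy of each gene. Replicate 2 of the control, in which PAL1 was highest, was the lowest control library for C4H. In G59, C4H was listed at 0 in all 3 drought libraries, against 0.68, 2.16 and 1.85 FPKM under control, and it fell there as well (log2 fold change -1.31, SE 0.29, adjusted p = 0.00139 in limma, where 6.71% of the listed genes were lower DEGs).

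F5H1, of the lignin and sinapate branch, had the highest FPKM of the 8 listed pathway genes in each G67 library. It had 222, 126 and 174 FPKM in the G67 drought libraries, against 310, 289.8 and 384.5 FPKM in those of the control. Every drought library lay below every control library, and the groups did not overlap for 91.3% of the listed genes in G67. F5H1 differed by -0.94 in log2 (SE 0.22, adjusted p = 0.00265 in limma), which passed on p and not on the fold, where 42.5% of the listed genes had lower values at that p. After quantile normalization it was -0.33 (adjusted p = 0.273 in limma), and with median-ratio scaling F5H1 was a DEG (-1.02). It was 3.96, 2.14 and 2.51 times CCR1 under drought, against 12.4, 9.36 and 10.8 times CCR1 under control. The lead of F5H1 over CCR1 was thus smaller in every drought library than in any control library. In G59, F5H1 had 5.45, 3.75 and 4.38 FPKM under drought, against 2.11, 2.09 and 1.42 FPKM under control (log2 fold change 0.94, SE 0.22, adjusted p = 0.00201 in limma). At that p alone 91.6% of the listed genes passed in G59, 73.5% with higher values under drought. F5H1 had a direction there that turned under median-ratio scaling (-0.04) and quantile normalization (-0.19).

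**Figure D4:**
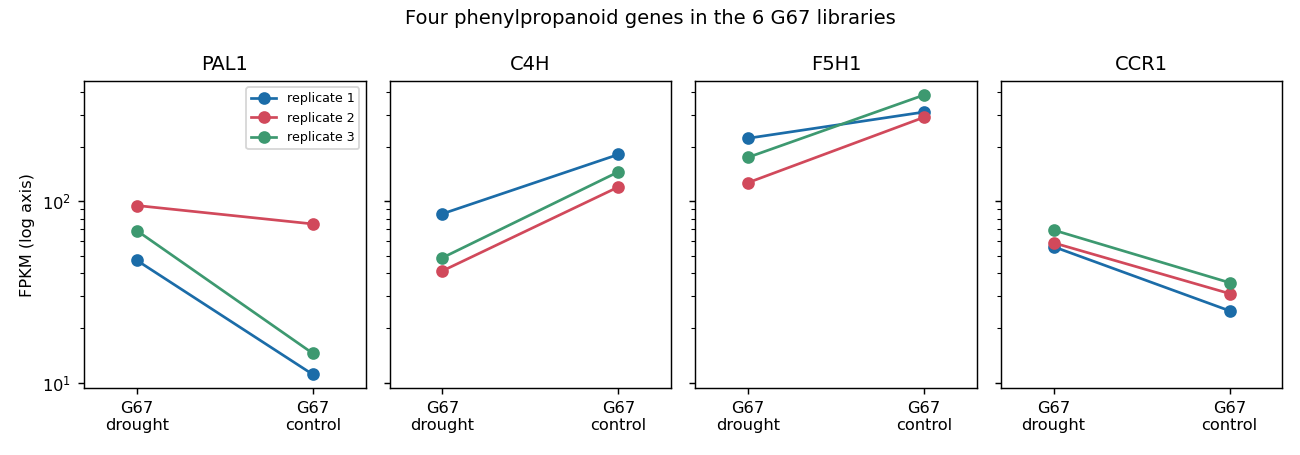
FPKM of PAL1, C4H, F5H1 and CCR1, in the order of the pathway with CCR1 last, in the 6 G67 libraries on a log axis. Each line joins the drought library (left) and the control library (right) with the same replicate number. PAL1 and CCR1 are higher under drought in 3 of 3 pairs, and C4H and F5H1 are lower under drought in 3 of 3 pairs. Whether the numbers pair the libraries is not settled, and PAL1 of control replicate 2 lies above drought replicates 1 and 3.

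CHI, which closes the ring of the first flavanone, and UGT89B1, a glucosyltransferase, rose in G67 with log2 fold changes of 1.05 (SE 0.30, adjusted p = 0.00705 in limma) and 2.94 (SE 0.37, adjusted p = 5.81e-05 in limma). CHI had 0.92 under median-ratio scaling, 0.73 under quantile normalization and 0.83, 0.94 and 0.90 when control replicate 3, control replicate 2 or drought replicate 1 was left out, and was not a DEG in any of these. FLS3, a flavonol synthase, and CYP75B137, a flavonoid 3'-monooxygenase, had log2 fold changes of 0.51 and 1.14 and were not DEGs (adjusted p = 0.0817 and 0.165 in limma). Fitted on the G67 libraries only, CYP75B137 was a DEG (1.14, SE 0.25, adjusted p = 0.00563 in limma, and 0.01 with the replicate block as well). In G59, CHI, FLS3 and UGT89B1 rose (1.40, 1.15 and 2.10), and CYP75B137, which had 12.7 FPKM in 1 drought library and 0 in the other 2, had 1.26 and was not a DEG. After quantile normalization, the values of CHI and FLS3 in G59 were 0.69 and 0.36, and neither was a DEG. Median-ratio scaling gave 0.61 for CHI and 0.86 for FLS3, and FLS3 had 0.93 when drought replicate 2 was left out, all short of a DEG. CYP75B137 passed when drought replicate 2 or 3 was left out (1.89 each).

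**Figure D5:**
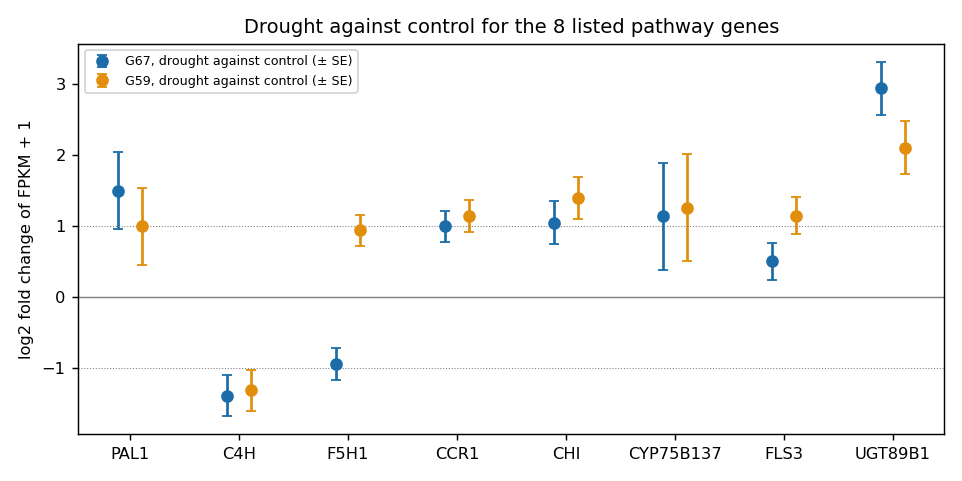
Log2 fold change of FPKM + 1 between drought and control in G67 (blue) and G59 (orange) for the 8 listed pathway genes. Points are limma estimates, bars are ± 1 standard error, and dotted lines mark a log2 fold change of 1 in each direction. C4H is below 0 in both genotypes (-1.38 in G67 and -1.31 in G59), F5H1 is below 0 in G67 (-0.94) and above 0 in G59 (0.94), and the other 6 genes are above 0 in both.

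The genes most like PAL1 and CCR1 were sought by the root mean square difference between profiles of log2(FPKM + 1) over the 12 libraries, each profile centred on its own mean. CCR1 was the second nearest of 997 genes to PAL1, at a distance of 0.63, with LOC106352848 at 0.58, LOC106348307 at 0.64 and a median of 1.68. From the side of CCR1, PAL1 was in place 56 and 55 genes were nearer than PAL1. The nearest to CCR1 were BNAC02G07050D (0.21), LOC106348372 (0.24) and LOC106345400 (0.24), with a median of 1.51. FLS3 was in place 13 for CCR1, at 0.37, and in place 41 for PAL1. C4H was in place 439 for CCR1 and 482 for PAL1.

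These distances over 12 libraries largely carry the gap between G67 and G59. Over the 6 libraries of G67 alone, CCR1 was in place 189 for PAL1 and PAL1 in place 642 for CCR1, at a distance of 0.89, and the 3 nearest genes of either member were other ones. LOC106351307 was then nearest to CCR1 at 0.05, with 15.2, 15.2 and 18.8 FPKM under drought, against 6.75, 7.64 and 9.13 FPKM under control. LOC106352423 was nearest to PAL1 at 0.44, with 11.1, 20.8 and 13.3 FPKM under drought, against 2, 7.46 and 3.32 FPKM under control. Like PAL1, it was highest in replicate 2 of both groups. C4H and F5H1 were in places 951 and 839 for PAL1, near the far end of the list. The files and the RefSeq table give no gene name for these nearest genes, and the name CCR1 for LOC106367237 is that of the study.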

How the data were processed

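RNA from flowers of 12 rapeseed samples was sequenced on a DNBSEQ-G400. Low-quality reads were removed by the authors (NGS QC Toolkit), who mapped the rest to the Darmor-bzh genome (the aligner is not given in the sources used here) and deposited FPKM values from Cufflinks 2.0.0 (Cuffquant, then Cuffnorm). The methods speak of 4 cDNA libraries, while the labels list 12 samples, and no 2 files held identical values. Groups and replicate numbers were taken from the labels, with the names G67 and G59 from the study's text. The methods speak of a repeated experiment with flowers taken from plants of every replicate group, without tying a library to a repeat, so that p-values measure the spread between these libraries, which may be partly technical. A table of the G67 values, their means and the authors' ratio of means was not used.

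The log2(FPKM + 1) values of all 998 genes entered 1 limma fit (version 3.58.1, R 4.3.3) of 4 group means. Variances were moderated by empirical Bayes with no trend, and p-values were adjusted by Benjamini-Hochberg over the 998 genes. A fold change on this scale understates that of genes with low FPKM. DEGs were called at an adjusted p up to 0.05 with a log2 fold change of 1 or more in size. The difference of responses was called on the adjusted p alone. The fit was tested on simulated data. Ratios, ranks, profile distances and exact two-sided permutation tests came from Python 3.11.15 (pandas 2.3.3, numpy 2.4.6), and figures from matplotlib 3.10.9. Genes named were PAL1 and CCR1, the listed genes of their pathway, and the 3 genes with the nearest profile to each. Both members and all lists were chosen with earlier results of these data known.

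Alternatives were quantile normalization, median-ratio scaling, adding 0.1 or 0.01 FPKM, dropping genes whose mean was under 1 FPKM, moderation with an intensity trend, a replicate block, a fit of the 2 compared groups, leaving out each library, and distances over G67 alone. A 2-group fit with the block was added after the data were seen. In G67, deviations from the group mean correlated across genes between drought and control libraries of the same number (0.438, 0.190 and 0.194). Libraries of different numbers were not compared in this way, so whether the numbers pair the libraries is not settled. The main fit did not use the replicate numbers. In G59 the correlations were 0.010, -0.008 and -0.132. No protein or promoter sequence of the genes was used here.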

Additional observations from a re-analysis of the deposited data

Results flagged for a closer look

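For F5H1, the drought response of G67 minus that of G59 passed, at -1.88 in log2 (standard error 0.32, adjusted p = 0.000241 in limma, where 62.4% of the listed genes passed). Of the listed genes, 481 passed with a negative difference and 142 with a positive one, and the median over all listed genes was -0.69. All 3 G67 drought libraries lay below the G67 control libraries, and all 3 G59 drought libraries lay above those of the G59 control. The groups of drought and control did not overlap for 91.3% of the listed genes in G67 and 98% in G59. The difference for F5H1 passed in 18 of 19 alternatives and not after quantile normalization (-0.14, adjusted p = 0.752 in limma), and the G59 direction turned with the scaling. The value presupposes 1 gene per row across the genotypes.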

How the results depend on the processing

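Of 218 alternative values for PAL1 and CCR1, 188 kept their direction and side of the threshold, and 10 turned. The cause was not tested unless given. All 15 alternatives for each gene in each comparison of G67 with G59 kept both. All rank comparisons kept their direction. The 218 values include these and the comparisons of the ratio of PAL1 to CCR1 within a genotype. Their exact permutation test cannot go below p = 0.1, so their side of the threshold was fixed in advance. For PAL1 in G67, the log2 fold change was 1.56 (adjusted p = 0.0746) with 0.01 FPKM added and 1.50 (adjusted p = 0.0664) in the fit of 2 groups, and 0.999 to 2.32 with each library left out. In G59, PAL1 passed with 0.1 (3.36) or 0.01 FPKM added (6.53) and with median-ratio scaling (1.35), and had 0.857 to 1.26 with each library left out. CCR1 in G67 passed with 0.1 FPKM added (1.02, adjusted p = 0.0224) and had 0.864 to 1.11 with each library left out, passing without drought replicates 1 or 2, or control replicates 2 or 3. In G59 it had 0.454 after quantile normalization and 0.984 to 1.40 with each library left out.

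The difference of the responses turned for PAL1 with 0.1 (-1.81) or 0.01 FPKM added (-4.97) and with median-ratio scaling (-0.024), with 0.0029 to 1.33 when each library was left out. For CCR1 it passed with 0.1 (-2.30) or 0.01 (-3.84), turned after quantile normalization (0.24), and was -0.41 to 0.014 with each library left out, turning without replicate 1 of the G59 drought libraries. The log2 ratio of PAL1 to CCR1 turned in G59 with 0.1 (0.042) or 0.01 FPKM added (1.66). Between the genotypes it was 1.12 with 0.01 added and -0.39 to 0.23 with each library left out, turning without replicate 2 of the G67 drought, replicate 2 of the G67 control or replicate 1 of the G59 drought libraries. For F5H1 in G59 the turned values were -0.037 and -0.19.

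With the replicate block, PAL1 in G67 stayed a DEG with an adjusted p of 0.0119 in limma. The block changed no call of either member against the main fit. In the 2-group fit with the block, chosen after seeing the data, PAL1 in G67 was a DEG as well (adjusted p = 0.019 in limma). The number of DEGs moved by more than 1.5 times in G67 after quantile normalization (183 against 439) and in G59 with 0.1 or 0.01 FPKM added (922 and 930 against 539). With median-ratio scaling, G59 had 343 higher and 194 lower DEGs, against 472 and 67 as deposited, and its median over all genes was 0.56 against 0.98. After quantile normalization G59 had 218 and 212, and the genotypes 309 and 309 under drought and 302 and 311 under control, an even split that follows largely from that method. With median-ratio scaling the genotype splits were 368 and 239 under drought and 442 and 214 under control, and G67 had 173 and 120 against 294 and 145. Of the 3 nearest genes, 0 were shared over G67 alone for either member, and with 0.1 FPKM added 1 was shared for PAL1 and 2 for CCR1. Depth is unknown, so that FPKM near 0 cannot be told from 0 here.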
